A study of Mus musculus with 57 samples.

Results

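The retinoid X receptor gene Rxrg and 9 other nuclear receptor genes were followed in bulk RNA-seq of CD11b-positive brain cells, labelled microglia, from wild-type (WT) and P2RY12 knockout (KO) mice. P2RY12 is the ADP receptor that marks homeostatic microglia. The 10 genes comprise 3 retinoid X receptors (Rxra, Rxrb and Rxrg), 2 liver X receptors (Nr1h2 and Nr1h3), 2 peroxisome proliferator-activated receptors (Ppard and Pparg), 2 retinoic acid receptors (Rara and Rarg) and the vitamin D receptor (Vdr). They were taken by symbol from the first column of both count tables. All 10 were present, among 50565 genes in the table of the experiment on sex and 53278 genes in the table of the experiment on lipopolysaccharide (LPS), and all 10 were among the 31709 and 15857 genes that passed the filter on low counts. The members are listed nuclear receptor genes, and Rxrg was chosen by its counts, which were higher in KO than in WT in both tables. Its difference between the genotypes is therefore described below without a test, while its responses to LPS and to sex, and every contrast of the other 9 genes, were tested.

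Nuclear receptors are transcription factors switched by small lipophilic ligands. A retinoid X receptor (RXR) forms a heterodimer with a partner receptor, and the dimer sits on paired copies of the half-site AGGTCA, whose spacing differs between partners. Among the partners, the liver X receptors (LXRs) sense oxysterols and drive cholesterol efflux and lipid synthesis, the PPARs sense fatty acids, the retinoic acid receptors (RARs) sense all-trans retinoic acid, and VDR senses calcitriol. In microglia and other macrophages these dimers are known for controlling lipid handling and for damping inflammatory genes, and RXR-gamma itself is better known from striatal neurons, muscle and the oligodendrocyte lineage.

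In the experiment on sex the groups were WT males (4 mice), KO males (5), WT females (4) and KO females (5), all adult littermates. The treatment text, shared by all samples, names the LPS injection, but these mice carry no treatment label of their own, and their Saa3, an acute-phase gene strongly induced by LPS, was at most 0.361 CPM. In the experiment on LPS they were WT and KO littermates labelled ns, read here as without LPS, or given 1 mg/kg LPS by intraperitoneal injection, with 8 samples in each of the 4 groups; the labels do not spell out ns, give the sex of these mice or state the time after injection. How the knockout was made, and whether it is confined to microglia, is not given in the sources used here. The labels do not state that each library came from a separate mouse in the LPS experiment, so p-values there measure the spread between libraries. Levels are CPM (counts-per-million) of the TMM-scaled library. The tables were counted differently, over whole gene spans in the first and probably not in the second, so levels were compared only within a table. "Adjusted p" below is from edgeR's quasi-likelihood test with Benjamini-Hochberg adjustment over all genes tested, a gene is called at an adjusted p under 0.05, and a difference on the log2 scale is given with its standard error (SE).

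Libraries held 58.5 to 318.5 M (mega) counts in the sex experiment and 15.9 to 168.4 M counts in the LPS experiment. P2ry12 was at 309 to 526 CPM in the 10 KO mice of the sex experiment against 3007 to 5928 CPM in the 8 WT mice, so residual counts remained but the genotypes did not overlap. Microglial markers were present in every library. In the LPS experiment the 4 WT libraries of number 2 went against their treatment labels. The WT ns samples 1 and 5 had 481 and 927 CPM of P2ry12 and 1781 and 2491 CPM of Saa3, whereas the other 6 WT ns samples had 3516 to 5406 and 1.52 to 64.3 CPM. The WT LPS samples 1 and 6 had 4461 and 12154 CPM of P2ry12 and 1.59 and 3.21 CPM of Saa3, whereas the other 6 WT LPS samples had 400 to 1063 and 1418 to 9721 CPM. These 4 libraries are shown apart, under their labels.

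In the same experiment 6 libraries, 2 of them among those 4, had low counts of GC-rich genes, with an index (the median log2 deviation of the 25% of genes with the highest GC content minus that of the 25% with the lowest) of -3.37 to -1.67 against -0.24 to 0.75 in the other 26. They are WT ns 5, WT LPS 6 and 7, KO ns 5 and 6, and KO LPS 5. The libraries of this experiment fall into 2 sets by name, and all 6 belong to set 2. WT ns 5, WT LPS 6, KO ns 5 and KO LPS 5 are the libraries of number 2 in that set. WT LPS 7 and KO ns 6 are of number 3. The member genes have 50.2 to 61.4% GC in their exon bases, and all 10 had lower medians in these 6 libraries than in the other 26. Rxra had a median of 18.0 CPM in these 6 libraries against 95.5 CPM in the other 26, Ppard 6.23 against 74.4 CPM and Rara 0.740 against 12.3 CPM. For Rxrg, at 54.6% GC, the medians were 2.53 and 4.70 CPM, and for Pparg, the member with the lowest GC content, 0.448 and 0.492 CPM. The LPS experiment was therefore fitted with 3 sets of samples: with all 32 samples as labelled, without the 4 WT libraries of number 2 (28 samples), and without those and the low-GC libraries (24 samples: 6 WT ns, 5 WT LPS, 6 KO ns and 7 KO LPS), the last chosen after seeing the data. Values are from the 24-sample set where no other set is named, and the other 2 sets are given beside them where the members are tested. WT ns 4 had the highest index (0.75, next 0.18) and was the deepest library (168.4 M counts, next 45.3 M), and it stays in all 3 sets. How much the GC index adds to any single difference was not tested.

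**Figure D1:**
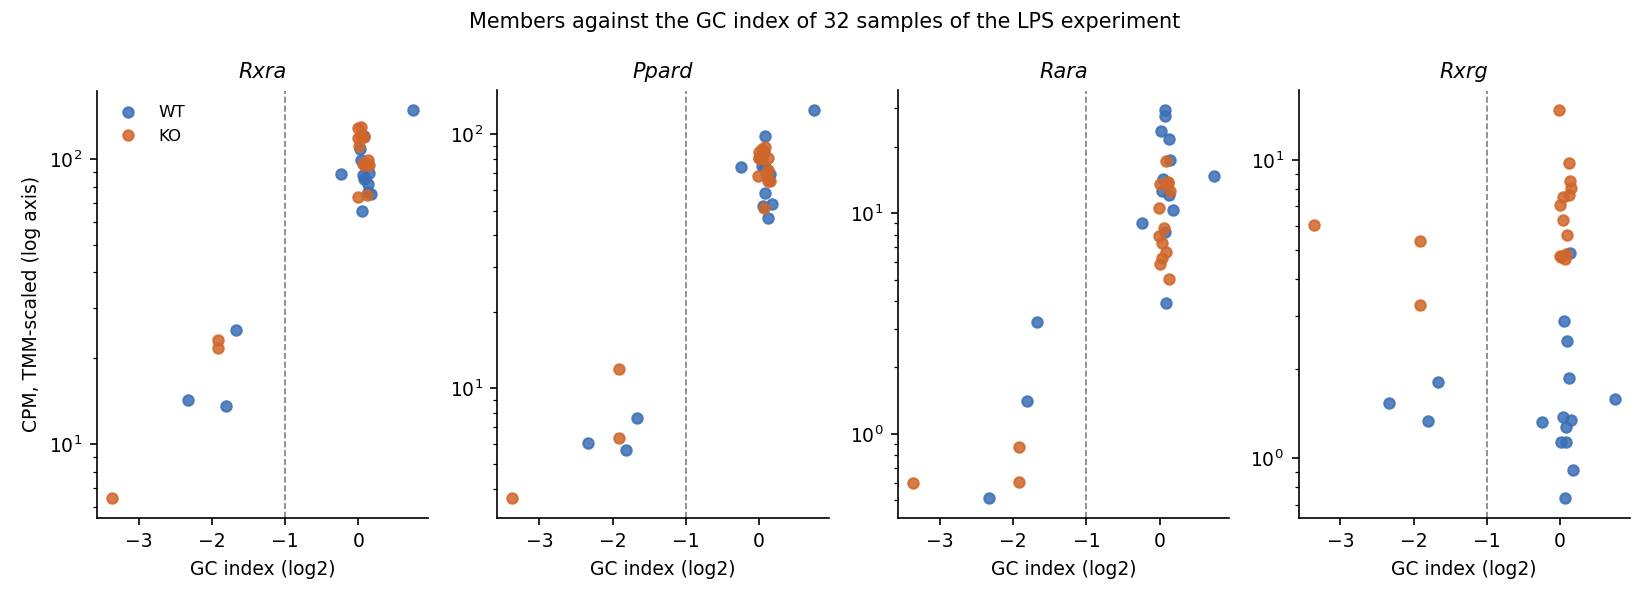
Levels of Rxra, Ppard, Rara and Rxrg in CPM (log axis) against the GC index of each of the 32 LPS samples (horizontal axis, log2), with WT in blue and KO in orange and a dashed line at an index of -1. The 6 samples left of the line hold the lowest Rxra, Ppard and Rara levels, whereas Rxrg in them lies between 1.34 and 6.06 CPM, inside the range of the other samples.

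The 2 annotated Rxrg promoters are printed because Rxrg was chosen by its counts, which were higher in KO in both tables. Each run holds the 250 bases before a transcription start in RefSeq's GRCm38.p6 annotation, on the plus strand, 5′ to 3′, with a match to the RXR half-site AGGTCA or to the PU.1 core GAGGAA, on either strand, in capitals. The first window lies at chr1:167598112-167598361 and the second at chr1:167618015-167618264, and the starts are 19903 bases apart.
Rxrg promoter 1: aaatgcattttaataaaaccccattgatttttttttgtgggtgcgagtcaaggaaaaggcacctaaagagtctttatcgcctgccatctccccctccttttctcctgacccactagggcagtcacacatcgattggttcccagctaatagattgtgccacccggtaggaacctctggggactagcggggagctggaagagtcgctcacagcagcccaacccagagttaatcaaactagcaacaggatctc
Rxrg promoter 2: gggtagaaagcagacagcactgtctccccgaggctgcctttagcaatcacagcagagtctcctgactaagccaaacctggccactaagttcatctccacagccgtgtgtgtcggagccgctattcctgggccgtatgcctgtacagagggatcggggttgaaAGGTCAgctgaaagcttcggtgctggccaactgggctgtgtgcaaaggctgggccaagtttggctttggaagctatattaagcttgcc

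The first window holds none of the 6 motifs searched, and has 49.2% GC. The second holds 1 half-site and has 55.2% GC, against a median of 52.4% over all 32851 RefSeq promoter windows of this length. A half-site is common, with a match in 14% of all windows. The paired form with 1 base between the copies (AGGTCANAGGTCA), typical of RXR with a PPAR, occurred in 0.0335% of windows, and the form with 4 bases between them (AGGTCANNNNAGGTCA), typical of RXR with an LXR, in 0.0152%. The core GAGGAA occurred in 23.3%, the E-box CACGTG in 6.02% and the TATA box TATAAA in 12.4%. All 10 genes matched the table, with 20 windows in all, and none of the 20 held either paired form.

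Rxrg was low and higher in KO mice of both sexes. In WT males the 4 mice had 3.02, 1.85, 0.970 and 1.03 CPM, and in KO males the 5 mice had 6.59, 6.42, 3.61, 3.68 and 4.21 CPM. Every KO male lay above every WT male. In WT females the 4 mice had 3.54, 2.97, 2.72 and 1.21 CPM, and in KO females the 5 mice had 7.94, 7.13, 5.13, 3.64 and 2.55 CPM. Here the lowest KO female, at 2.55 CPM, lay below 3 of the 4 WT females, so the groups overlapped. On the log2 scale KO exceeded WT by 1.53 ± 0.41 (SE) in males, by 1.01 ± 0.40 in females and by 1.27 ± 0.28, or 2.41-fold, averaged over the sexes. The share of all genes called in these contrasts was 0.00946%, 0.164% and 0.432%; Rxrg is not counted against them, since these values chose it.

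In the LPS experiment the 16 KO samples had 3.26 to 14.7 CPM of Rxrg (median 6.17) and the 16 WT samples 0.734 to 4.89 CPM (median 1.36). Without LPS the KO samples ran from 3.26 to 7.49 CPM (median 5.09) and the WT samples from 0.734 to 2.47 CPM (median 1.35), with no overlap. After LPS the KO samples ran from 4.65 to 14.7 CPM (median 7.86) and the WT samples from 0.911 to 4.89 CPM (median 1.57). The groups overlapped by a single library, WT LPS 5, at 4.89 CPM, while the other 15 WT samples of the experiment stayed at or below 2.89 CPM. That library was at 1.21 CPM of the chemokine receptor gene Ccr1l1, which is at 92.2 to 532 CPM in the other 15 WT samples and at 0.360 to 8.50 CPM in the 16 KO samples, although its P2ry12, at 542 CPM, lay within the range of WT LPS samples and above the 84.2 to 154 CPM of KO LPS samples. Ccr1l1 did not separate the genotypes in the sex experiment, where it ran from 2.96 to 7.67 CPM in KO and from 2.84 to 7.67 CPM in WT.

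In Rxrg the WT libraries of number 2 were as follows. The samples labelled WT ns 1 and 5 had 2.47 and 1.53 CPM, and those labelled WT LPS 1 and 6 had 1.14 and 1.80 CPM, all below the lowest KO sample. Without LPS, KO exceeded WT by 1.93 ± 0.30 on the log2 scale with all samples, by 2.14 ± 0.32 without number 2 and by 2.25 ± 0.31 (4.77-fold) in the 24-sample set. After LPS the difference was 2.02 ± 0.30, 1.91 ± 0.31 and 1.85 ± 0.31 (3.60-fold). Without WT LPS 5 it was 2.33 with all other samples. At this level the counts are few: WT samples of the 24-sample set held 17 to 258 reads of the gene and KO samples 101 to 516.

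**Figure D2:**
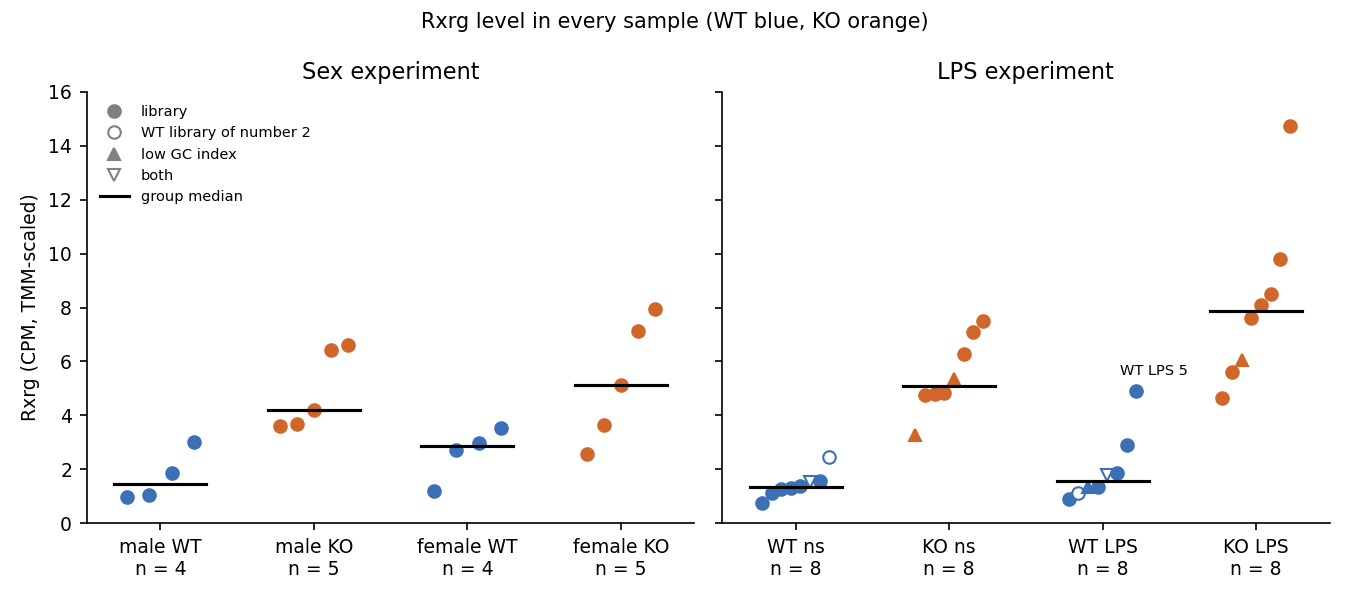
Rxrg in CPM (linear axis) in every sample of the sex experiment (left, 18 mice) and the LPS experiment (right, 32 samples), by group; lines mark group medians, and open circles, triangles and open triangles show the WT libraries of number 2, the low-GC libraries and those that are both. Compared within sex and treatment, KO samples lie above WT samples except for the KO female at 2.55 CPM and around the library WT LPS 5 at 4.89 CPM.

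By group median, Rxrg remained the minor RXR gene in all groups of the LPS experiment. Per kilobase of exon, so that genes can be compared, Rxrg made up a median of 1.19% of the summed RXR level in WT ns samples of the 24-sample set (0.783 to 1.49%) and 4.89% in KO ns samples (3.96 to 6.33%). After LPS the medians were 1.95% in WT (0.964 to 5.88%) and 8.10% in KO (4.40 to 17.01%). Rxrb held the largest median share in each group, 50.9 to 62.0%, followed by Rxra at 36.1 to 44.4%. As these shares use the counts that chose the gene, they are a description. In the 6 low-GC libraries the Rxrg share was 3.38 to 33.4%, beside the low Rxra counts given above. The highest of these, in KO LPS 5, exceeded the Rxra share of that library, 14.9%.

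Neither the sex difference of Rxrg nor a change of its genotype difference with sex passed the test. In WT, females exceeded males by 0.62 ± 0.42 on the log2 scale (adjusted p = 0.685), in a contrast that called 0.0725% of all genes. The genotype difference was 0.51 smaller in females, at -0.51 ± 0.55 (95% interval -1.60 to 0.57, adjusted p = 0.999), in a contrast that called 0% of all genes with edgeR and with DESeq2, while 879 genes had an unadjusted p under 0.05 in edgeR.

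Rxrg was called as higher after LPS in WT only where the libraries against their labels were left out, and in the 24-sample set the call was lost without either of 2 libraries. The WT difference, LPS minus ns, was 0.49 ± 0.30 (adjusted p = 0.318) with all samples, 0.84 ± 0.32 (adjusted p = 0.0487) without number 2 and 0.91 ± 0.32 (adjusted p = 0.0189) in the 24-sample set. In the 24-sample set it was 0.57 (adjusted p = 0.118) without WT LPS 5 and 0.76 (adjusted p = 0.0699) without WT LPS 2. In KO the difference was 0.57 ± 0.29 (adjusted p = 0.164), 0.61 ± 0.27 (adjusted p = 0.0933) and 0.51 ± 0.28 (adjusted p = 0.126) in the 3 fits, and 0.62 (adjusted p = 0.0491) in the 24-sample set without KO LPS 7. The LPS response did not differ between genotypes in a test, at -0.41 ± 0.42 (95% interval -1.23 to 0.42, adjusted p = 0.976) in the 24-sample set.

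Of the 9 partner receptors and other RXR genes, none was called between KO and WT by edgeR in any contrast. In the sex experiment the closest was Rxra, the main RXR of many tissues, at 77.7 to 95.2 CPM in the 10 KO mice and 65.1 to 90.4 CPM in the 8 WT mice. Its ranges overlapped, and the difference of 0.14 ± 0.07 on the log2 scale had an adjusted p of 0.552 and an unadjusted p of 0.0489, the single one of the 9 under 0.05. The broadly expressed Rxrb was at 51.6 to 60.3 CPM in KO and 50.3 to 58.2 CPM in WT (0.02 ± 0.05, 95% interval -0.07 to 0.11). Ppard, the ubiquitous PPAR, had an interval of -0.10 to 0.13, and Nr1h2, the widely expressed LXR-beta, one of -0.19 to 0.07. Nr1h3, the LXR-alpha gene of macrophages, was at 3.94 to 5.54 CPM in KO and 3.69 to 4.73 CPM in WT (0.14 ± 0.09, interval -0.03 to 0.31).

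The intervals of the less abundant or more variable receptors were wider. For Pparg, the fatty acid receptor known from adipocytes and alternatively activated macrophages, the averaged difference was 0.19 ± 0.19 (interval -0.18 to 0.56). Rarg, the RAR-gamma gene, had -0.28 ± 0.16 (interval -0.59 to 0.02) and Vdr -0.37 ± 0.37 (interval -1.09 to 0.36). For Rara, the RAR of myeloid cells, the interval ran from -1.47 to 0.23. No interaction between genotype and sex was called for the 9 genes (adjusted p = 0.999 for each, edgeR).

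The highest Rara levels lay in samples with high neutrophil genes. In 2 WT mice, male 5 and female 2, Rara was at 48.0 and 41.8 CPM and the summed level of 8 neutrophil markers at 48214 and 28621 CPM. In the other 16 mice Rara ran from 6.10 to 22.4 CPM (median 10.3) and the sum from 720 to 7668 CPM. Rarg followed, at 20.8 and 18.0 CPM in the same 2 mice against 8.05 to 14.2 CPM in the others. In the LPS experiment WT ns 3 and 8 had the highest Rara levels, 29.3 and 27.6 CPM, and sums of 17265 and 16058 CPM. Rarg there was highest in the library labelled WT LPS 1, at 23.7 CPM and a sum of 7093 CPM, followed by WT ns 3 and 8 at 22.9 and 22.5 CPM. WT ns 2 and KO ns 1 had close Rarg levels, 16.7 and 17.1 CPM, at sums of 318 and 6188 CPM. Among the low-GC libraries high Rara and a high sum did not go together: WT LPS 7 had 1.41 CPM of Rara at a sum of 13474 CPM. All 8 neutrophil markers had counts in every library, and their part in the genotype values of Rara and Rarg was not tested. In these bulk samples, fewer cells of a type and less RNA per cell cannot be told apart.

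**Figure D3:**
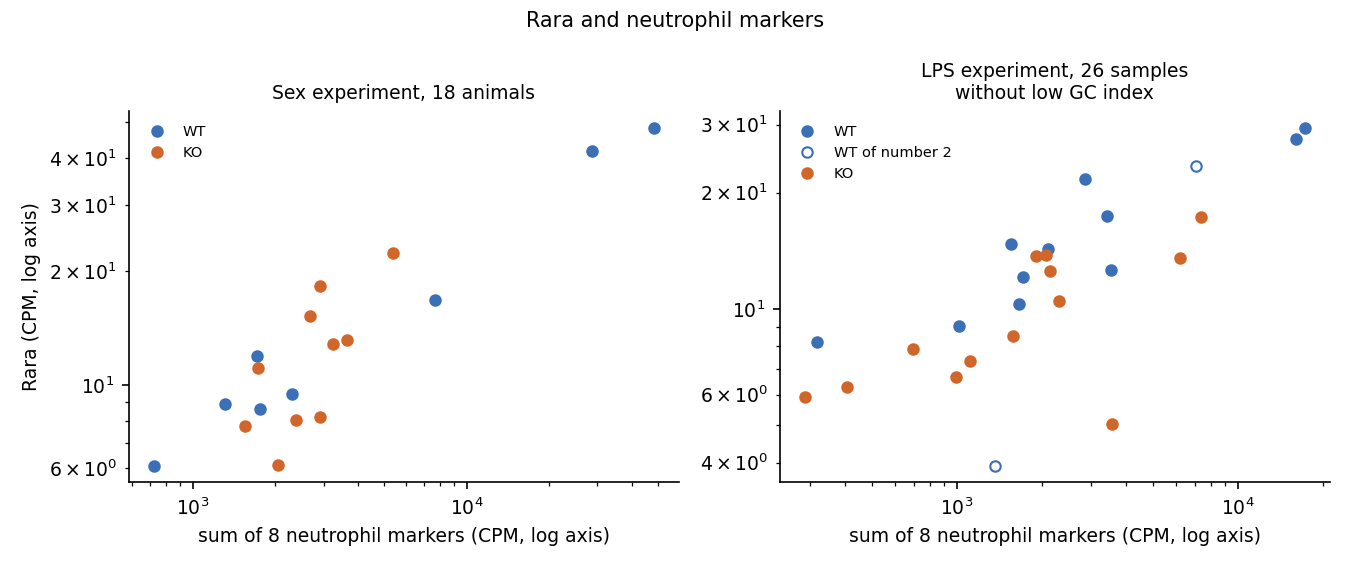
Rara in CPM (log axis) against the summed level of 8 neutrophil markers (log axis, CPM) in the sex experiment (left) and the LPS experiment (right, 26 samples without the low-GC libraries), one point per sample, colored by genotype, with open circles for WT libraries of number 2. In the sex experiment the 2 mice with sums of 28621 and 48214 CPM hold the 2 highest Rara levels.

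In the LPS experiment, too, edgeR called none of the 9 genes between KO and WT. With all samples the contrast without LPS called 0.114% of all genes and the contrast after LPS 0.126%, without number 2 the shares were 0.0932% and 0.0746%, and in the 24-sample set 0.348% and 0.28%. Of the 9 genes, 0 and 1 had an unadjusted p under 0.05 without and after LPS with all samples (Pparg after LPS, -2.24 ± 0.68, adjusted p = 0.264), and 3 and 0 without number 2 (Pparg -0.96 ± 0.42, Rara -1.31 ± 0.57 and Rarg -0.87 ± 0.41, adjusted p = 0.535, 0.53 and 0.543). In the 24-sample set 2 of the 9 genes had an unadjusted p under 0.05 without LPS, Rara (-0.81 ± 0.35, adjusted p = 0.36) and Pparg (-0.78 ± 0.36, adjusted p = 0.387), both with lower means in KO. After LPS the 2 genes were Pparg (-0.94 ± 0.44, adjusted p = 0.42) and Ppard (0.23 ± 0.11, adjusted p = 0.43). Rxra was at 0.19 ± 0.12 without LPS and 0.20 ± 0.12 after it, and Rxrb at -0.03 ± 0.10 and -0.04 ± 0.10. With all samples Rxra was at 0.07 ± 0.42 and 0.28 ± 0.42, and without number 2 at -0.17 ± 0.40 and 0.24 ± 0.41.

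DESeq2 called 1 of the 9 genes in 1 of these contrasts: Pparg after LPS, with all samples as labelled (-2.33 ± 0.64, adjusted p = 0.0377). There the library labelled WT LPS 6, of number 2 and of low GC, had 6.42 CPM against 0.161 to 0.910 CPM in the other 7 WT LPS samples. Without number 2, DESeq2 called none of the 9. Nr1h3 and Nr1h2 showed no called difference in either condition, with 95% intervals after LPS in the 24-sample set of -1.02 to 0.33 and -0.26 to 0.19.

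**Figure D4:**
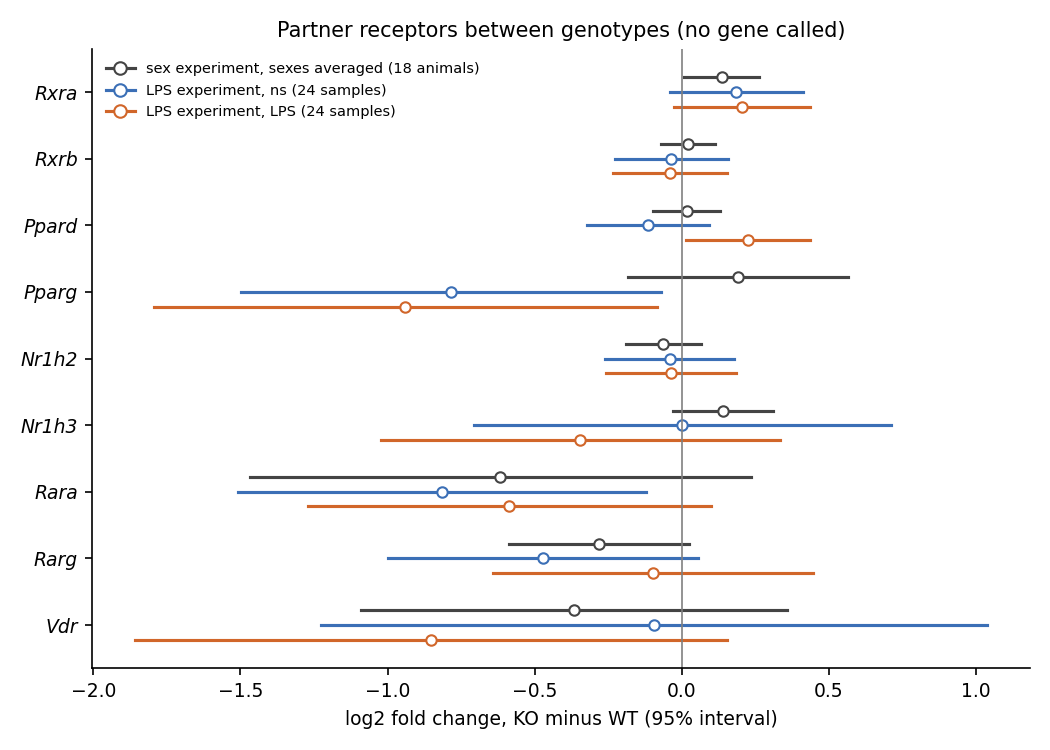
Difference KO minus WT (log2 scale, horizontal axis) of the 9 other receptor genes with 95% intervals, in the sex experiment and in the 24-sample set of the LPS experiment without and after LPS. The narrowest intervals are those of Rxrb, Ppard, Nr1h2 and Rxra, and none of the 9 genes passed an adjusted p of 0.05 in a contrast.

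LPS changed several receptor genes. In the 24-sample set LPS minus ns called 5 of the 10 genes in KO and 7 of 10 in WT, in contrasts that called 54.7% and 54.1% of all genes, so the share of members was near the background. Nr1h3 rose, and Pparg, Rarg, Ppard and Rxra fell, in both genotypes. With all samples the KO contrast called 22.3% of all genes and 1 member, Nr1h3, and the WT contrast called 0% of all genes and no member (3605 genes had an unadjusted p under 0.05 with edgeR, and DESeq2 called 732). Without number 2 the shares were 28.5% in KO, with Nr1h3 and Pparg called, and 30.7% in WT, with Nr1h3, Pparg, Rarg and Rxrg called.

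Among the LXRs, Nr1h3 had the clearest response to LPS. In WT ns samples of the 24-sample set it was at 1.83 to 3.20 CPM (median 2.98) and in the 5 WT LPS samples at 6.67, 5.90, 16.4, 20.95 and 4.03 CPM, with no overlap. In KO it was at 2.37 to 3.50 CPM (median 2.70) without LPS and at 2.63 to 14.2 CPM (median 7.74) after it, where only KO LPS 7, at 2.63 CPM, lay in the ns range. The rise was 1.95 ± 0.37 (3.88-fold, adjusted p = 0.00012) in WT and 1.61 ± 0.35 (3.05-fold, adjusted p = 0.000477) in KO. In KO it was also called with all samples (1.69 ± 0.42, adjusted p = 0.00466), while WT as labelled gave 1.38 ± 0.42 (adjusted p = 0.112). The libraries labelled WT LPS 1 and 6 had 2.62 and 1.57 CPM of Nr1h3, in the range of samples without LPS. Nr1h2 was not called, at -0.22 ± 0.12 (adjusted p = 0.113) in WT and -0.22 ± 0.11 (adjusted p = 0.0893) in KO. The KO fall was called without WT ns 4 (-0.20, adjusted p = 0.0154) or without KO LPS 7 (-0.27, adjusted p = 0.0345). The WT fall was called without WT ns 7 (-0.28, adjusted p = 0.0431). Nr1h3 shares its span with Acp2 and Gm23390, which overlap it in the annotation of the files. Ppard, Rara and Vdr also overlap other annotated genes there, and whether reads were assigned by strand is not stated.

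The PPARs fell. Ppard went from 74.4 to 124.6 CPM (median 80.3) in WT ns samples to 52.2, 53.3, 70.0, 66.2 and 46.6 CPM in WT LPS samples, without overlap. In KO it went from 79.8 to 89.0 CPM (median 83.0) to 51.3 to 80.9 CPM (median 68.2), where the ranges overlapped narrowly. The fall was -0.62 ± 0.11 (adjusted p = 6.06e-05) in WT and -0.28 ± 0.10 (adjusted p = 0.0237) in KO, and the KO call was lost in 5 of the 24 fits that left out a single sample (adjusted p up to 0.0747). Neither was called with all samples (-0.69 ± 0.51 in WT and -0.08 ± 0.51 in KO) or without number 2 (-0.84 ± 0.51 and -0.04 ± 0.44). The difference between the responses, 0.34 ± 0.15 with an unadjusted p of 0.0343, did not pass the adjustment (adjusted p = 0.976), in a contrast that called 0.00622% of all genes.

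Pparg, the lowest of the PPARs here, went from 0.552 to 1.69 CPM (median 1.46) in WT ns samples to 0.170, 0.161, 0.337, 0.885 and 0.501 CPM in WT LPS samples. In KO it went from 0.325 to 1.04 CPM (median 0.675) to 0.0801 to 0.371 CPM (median 0.153). The fall was -1.61 ± 0.40 (adjusted p = 0.00163) in WT and -1.77 ± 0.40 (adjusted p = 0.00061) in KO. The ranges overlapped in both genotypes, and these levels rest on 2 to 90 reads a sample. As labelled, WT gave 0.05 ± 0.63 (adjusted p = 0.969) and KO -1.59 ± 0.67 (adjusted p = 0.0849), and without number 2 they gave -1.62 ± 0.47 (adjusted p = 0.0109) and -1.52 ± 0.44 (adjusted p = 0.00934). The library labelled WT ns 1 had 0.0442 CPM and that labelled WT LPS 6 had 6.42 CPM, and their part in the WT value was not tested.

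Of the retinoic acid receptors, Rarg fell and Rara did not pass the test. Rarg was at 12.0 to 22.9 CPM (median 16.9) in WT ns samples and at 4.32, 4.83, 13.4, 9.27 and 3.35 CPM in WT LPS samples, where WT LPS 4, at 13.4 CPM, lay in the ns range. In KO it was at 8.64 to 17.1 CPM (median 12.2) without LPS and 4.28 to 8.69 CPM (median 6.73) after it, with overlap only between 8.64 and 8.69 CPM. The fall was -1.33 ± 0.29 (adjusted p = 0.000558) in WT and -0.95 ± 0.26 (adjusted p = 0.00376) in KO. With all samples Rarg was not called (-0.85 ± 0.50 in WT and -0.71 ± 0.50 in KO), and without number 2 it was called in WT (-1.48 ± 0.45, adjusted p = 0.0141) and not in KO (-0.69 ± 0.39). Rara gave -0.14 ± 0.36 (adjusted p = 0.76) in WT and 0.08 ± 0.34 (adjusted p = 0.851) in KO, and was not called in the other 2 sets. Beside these falls, all 9 microglial markers were lower after LPS in each genotype, and 8 were called (median -0.92 in WT and -0.63 in KO). These contrasts called 54.1% of all genes in WT and 54.7% in KO, against which the marker counts here are to be read. The 8 neutrophil markers had a median of -1.44 in WT, where all were lower and Camp and Ltf were called, and of -0.11 in KO, with none called. The 6 border-associated macrophage markers had medians of -1.24 in WT and -0.99 in KO, with 3 called in each. The part of these cells in the members' LPS values was not tested.

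Among the RXRs, Rxra fell modestly in both genotypes. It was at 85.2 to 148.7 CPM (median 93.9) in WT ns samples and at 65.7, 75.2, 89.0, 76.9 and 82.0 CPM in WT LPS samples, which overlapped at 89.0 CPM. In KO it was at 111 to 129 CPM without LPS and at 73.3 to 99.5 CPM after it, with no overlap. The fall was -0.43 ± 0.12 (adjusted p = 0.00469) in WT and -0.41 ± 0.11 (adjusted p = 0.00319) in KO. It was not called with all samples (-0.46 ± 0.42 in WT and -0.24 ± 0.42 in KO) or without number 2 (-0.62 ± 0.44 and -0.21 ± 0.38). Rxrb did not pass the test, at -0.13 ± 0.10 (adjusted p = 0.288) and -0.14 ± 0.09 (adjusted p = 0.225).

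Vdr, a receptor known to be induced in activated macrophages, was close to the detection limit, with 0 to 93 reads a sample. In WT it was at 0.0878 to 0.346 CPM (median 0.249) without LPS and at 0.238, 0.590, 0.295, 0.605 and 1.66 CPM after it. The rise of 1.46 ± 0.54 (adjusted p = 0.0266) rested on few libraries: without the deepest WT LPS sample, at 1.66 CPM, it was 0.90 (adjusted p = 0.213), and the call was also lost without WT LPS 3 (adjusted p = 0.0512) or WT ns 6 (adjusted p = 0.0559). In KO, Vdr gave 0.70 ± 0.56 (adjusted p = 0.301). It was not called in either genotype with all samples (1.01 ± 0.65 in WT and 1.08 ± 0.70 in KO) or without number 2 (1.30 ± 0.70 and 1.07 ± 0.66).

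No member's response to LPS differed between genotypes in a test (adjusted p = 0.976 to 0.999 over the 10 genes in the 24-sample set, edgeR). With all samples and without number 2 this contrast called 0% of all genes, while 1698 and 708 genes had an unadjusted p under 0.05, and DESeq2 called 11 genes with all samples. In order of the median level per kilobase, the ns samples of both genotypes ran from Nr1h2 through Rxrb and Rxra to Ppard. The levels of Nr1h2, at a median of 33.5 CPM per kilobase in WT ns samples, and Ppard, at 10.7, enclosed Rxrb (24.2) and Rxra (17.2), and Rarg (3.97), Rara (3.13) and Nr1h3 (1.18) followed. Rxrg stood below Nr1h3 in WT ns samples, at 0.565 CPM per kilobase, and above it in KO ns samples, at 2.42 against 1.07.

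**Figure D5:**
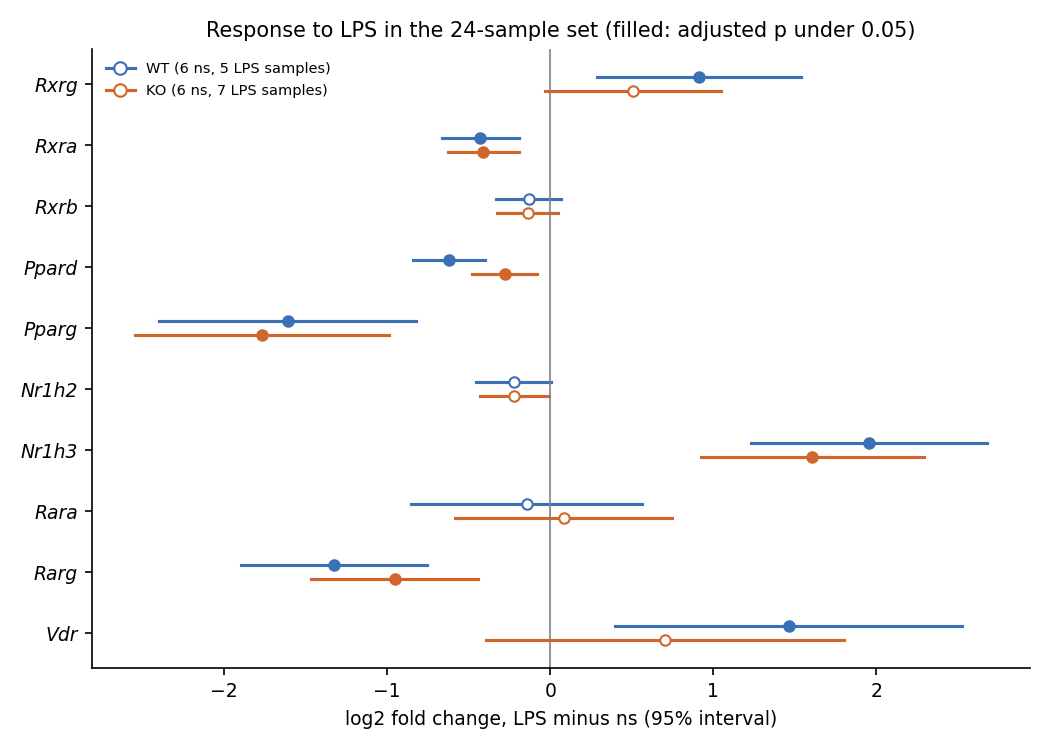
Difference LPS minus ns (log2 scale, horizontal axis) of the 10 receptor genes with 95% intervals in the 24-sample set, for WT (6 ns and 5 LPS samples) and KO (6 ns and 7 LPS samples). Nr1h3 lies on the right in both genotypes, and Pparg, Rarg, Rxra and Ppard on the left.

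The other genes of the pathway were followed in 7 lists with 84 entries: further RXR partners, coregulators, targets of LXR, PPAR, RAR and VDR, and enzymes and carriers that supply ligands. Between KO and WT edgeR called none of them in any contrast. In the sex experiment 80 distinct genes of the lists were tested, 5 of which had an unadjusted p under 0.05 averaged over the sexes, as did 2860 of all 31709 genes. DESeq2 called 1, Apoe (named after its values were seen, as are the other DESeq2 calls below), the lipid carrier and LXR target (0.65 ± 0.18, adjusted p = 0.0243). Apoe was at 456 to 874 CPM in KO males, 375 to 657 CPM in WT males, 608 to 1362 CPM in KO females and 451 to 631 CPM in WT females, with overlap in both sexes, and edgeR gave 0.65 ± 0.19 (adjusted p = 0.247).

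In the LPS experiment 61 genes of the lists were tested, of which 6 without LPS and 13 after it had an unadjusted p under 0.05 in the 24-sample set, as did 1988 and 1860 of all 16071 genes. DESeq2 called 1 of them there, Abca1, the cholesterol efflux pump and LXR target, after LPS (0.44 ± 0.12, adjusted p = 0.024). Abca1 was at 769 to 1112 CPM in KO LPS samples and 609 to 882 CPM in WT LPS samples, and edgeR gave 0.43 ± 0.12 (adjusted p = 0.117). With all samples as labelled DESeq2 called Angptl4 and Cd38 without LPS and Aldh1a2 and Fabp4 after it, all as labelled only: without number 2, DESeq2 called no gene of the lists between KO and WT.

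In the 24-sample set LPS raised 21 of the 61 tested list genes and lowered 17 in KO, and raised 20 and lowered 12 in WT. These contrasts called 54.7% and 54.1% of all genes, against which the total and the counts per list that follow are to be read, and no list is called apart from the other genes. With all samples KO gave 10 and 5 and WT none, and without number 2 KO gave 15 and 8 and WT 11 and 9. The median over all genes tested was -0.02 in KO and -0.01 in WT. Below, values are for KO in the 24-sample set, with the WT value beside it.

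Of the LXR targets, 6 of 14 rose and 6 fell in KO (median -0.03), and 5 rose and 4 fell in WT (median -0.07). Fasn, the fatty acid synthase, went from 35.2 to 48.9 CPM without LPS to 77.1 to 122.1 CPM after it (1.26 ± 0.12, adjusted p = 7.41e-09), and rose by 1.19 in WT. The cholesterol exporter gene Abcg1 rose by 0.83 ± 0.18 (0.73 in WT), while the phospholipid transfer protein gene Pltp gave -1.10 ± 0.27 (-1.13 in WT). Scd1, a fatty acid desaturase, fell in KO (-1.83 ± 0.39, adjusted p = 0.000321) from a level under 1 CPM and was not called in WT (-0.61 ± 0.38, adjusted p = 0.187), and the difference between these responses was not called (-1.22 ± 0.54, adjusted p = 0.976).

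Of the PPAR targets, 6 of 13 rose and 1 fell in KO (median 0.25), and 6 rose and 2 fell in WT (median 0.07). Plin2, which coats lipid droplets, went from 29.8 to 43.6 CPM to 77.5 to 279.8 CPM (2.00 ± 0.24, adjusted p = 4.25e-07), with 1.82 in WT. Cd36, a fatty acid and lipoprotein scavenger receptor, went the other way, from 11.7 to 33.8 CPM to 3.59 to 7.19 CPM (-1.95 ± 0.19, adjusted p = 1.68e-08), with -2.21 in WT. The mitochondrial carrier gene Ucp2 rose by 1.32 ± 0.16 (1.30 in WT). Angptl4, an inhibitor of lipoprotein lipase, rose by 2.90 ± 0.51 in KO and by 1.32 ± 0.48 in WT, from levels at or below 0.864 CPM.

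Of the RAR targets, 4 of 10 were tested, and 2 rose and 1 fell in both genotypes (median 0.21 in KO, 0.68 in WT). Cd38, the NAD glycohydrolase, went from 2.65 to 10.1 CPM to 13.9 to 40.5 CPM (2.02 ± 0.24, adjusted p = 2.49e-07), with 2.25 in WT. The transglutaminase gene Tgm2 rose by 0.69 ± 0.15 (0.81 in WT), and Dhrs3, which reduces retinal to retinol, gave -0.78 ± 0.11 (-0.97 in WT). No VDR target passed the filter on low counts in the LPS experiment.

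Of the ligand-supply genes, 2 of 10 rose and 3 fell in KO (median 0.14), and 2 rose and 1 fell in WT (median 0.10). Ch25h, which makes 25-hydroxycholesterol, went from 0.697 to 2.47 CPM to 2.86 to 25.8 CPM (2.76 ± 0.53, adjusted p = 0.000139), with 3.40 in WT. Cyp27a1, which makes 27-hydroxycholesterol, went from 94.9 to 115.0 CPM to 34.2 to 73.7 CPM (-0.86 ± 0.13, adjusted p = 4.34e-06), with -1.20 in WT. The fatty acid carrier gene Fabp5 rose by 1.12 ± 0.43 (1.09 in WT). Aldh1a2, an enzyme of retinoic acid synthesis with levels under 1 CPM, fell in KO (-1.39 ± 0.45, adjusted p = 0.0121) and was not called in WT (-0.24 ± 0.42, adjusted p = 0.659), with no called difference between the responses (adjusted p = 0.976).

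Of the further RXR partners, 5 of 9 were tested, and 2 rose and 3 fell in KO (median -0.75), against 2 and 1 in WT (median -0.60). The thyroid hormone receptor genes gave -1.45 ± 0.38 (Thrb) and -0.92 ± 0.31 (Thra) in KO, the orphan receptor gene Nr4a2 -0.75 ± 0.31, and Nr1i3, the CAR gene, rose by 1.05 ± 0.26. In WT, Thrb (-1.91) and Nr1i3 (1.13) were called and Thra (-0.78, adjusted p = 0.0579) and Nr4a2 (-0.60, adjusted p = 0.151) were not. Of the coregulators, 3 of 15 rose and 3 fell in each genotype (median 0.03 in KO, 0.00 in WT). The coactivator gene Ppargc1b went from 2.37 to 3.34 CPM to 6.87 to 17.4 CPM (1.83 ± 0.23, adjusted p = 5.19e-07), with 2.21 in WT. The corepressor gene Nrip1 gave -0.62 ± 0.11 (-0.67 in WT), and the coactivator genes Crebbp and Ncoa3 gave -0.51 ± 0.08 and -0.47 ± 0.06 (-0.31 and -0.65 in WT).

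Markers of other cells were compared beside the Rxrg difference. The summed level of 5 striatal projection neuron markers was 2.19 to 3.51 CPM in KO ns and 2.50 to 3.74 CPM in WT ns samples of the 24-sample set, and 1.32 to 5.40 and 2.86 to 4.52 CPM after LPS. The sum of 8 oligodendrocyte markers was 156 to 169 CPM in KO ns and 160 to 182 CPM in WT ns samples, and 116 to 130 and 112 to 134 CPM after LPS. Without LPS neither sum had a higher median in KO. After LPS both did, at 4.25 against 3.27 CPM for the striatal sum and 122.5 against 119.7 CPM for the oligodendrocyte sum. In the sex experiment the striatal medians were 4.39 CPM in KO and 5.91 in WT males, and 5.085 and 4.87 in females. The oligodendrocyte medians there were 153.3 and 166.7 CPM in males, and 150.5 and 162.6 in females. No marker of either list was called between the genotypes. All 8 oligodendrocyte markers and all 5 striatal ones were above 0 in some library, and in each KO group 2 of the 5 striatal ones had counts in every sample. The sum of 8 general neuron markers was 3.47 to 10.5 CPM (median 8.59) in KO ns samples and 3.01 to 6.50 CPM (median 4.89) in WT ns samples. After LPS it was 6.27 to 11.5 and 4.24 to 11.0 CPM. Of these 8 markers, 6 were higher in KO without LPS, 4 after LPS and 4 in the sex experiment, and none was called. The sum of 8 astrocyte markers did separate the groups without LPS, at 218 to 287 CPM in KO and 118 to 181 CPM in WT, with overlap after LPS (134 to 183 and 114 to 145 CPM). That sum was nearly all Slc1a3, a glutamate transporter gene, at 215 to 283 CPM in KO ns and 114 to 173 CPM in WT ns samples. Of that list only Slc1a3 was called. In KO ns against WT ns samples 3 of the 8 genes were higher, and the median log2 difference was -0.27. In the sex experiment the astrocyte sum was 278 to 354 CPM in KO males, 166 to 250 in WT males, 242 to 364 in KO females and 171 to 353 in WT females. The sum of 6 endothelial markers was 61.9 to 77.4 CPM in KO ns and 48.8 to 59.7 CPM in WT ns samples, and 24.2 to 50.6 and 15.3 to 38.0 CPM after LPS. In the sex experiment it was 64.8 to 76.0 CPM in KO males, 59.7 to 65.1 in WT males, 64.9 to 83.3 in KO females and 60.7 to 67.8 in WT females. For other myeloid cells, the 8 neutrophil markers had median log2 differences of -1.93 in the sex experiment and -1.39 without LPS in the 24-sample set. In both, 0 of 8 were higher in KO. The 5 monocyte markers had -0.78 and -1.32, with 0 of 5 higher. After LPS the medians were -0.29, with 3 of 8 higher, and -0.30. In the sex experiment WT male 5 and WT female 2 held the highest neutrophil sums, 48214 and 28621 CPM. The median neutrophil sum there was 2921.7 CPM in KO and 4711.2 in WT males, and 2387.5 in KO and 1809.5 in WT females. The 6 border-associated macrophage markers were all higher in KO in the sex experiment (median 0.42) and all lower without LPS in the 24-sample set (median -0.23), and no marker of these 3 lists was called. The part of the cells behind any of these marker lists in the Rxrg difference was not tested.

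In the GRCm39 coordinates of the files Rxrg lies on chromosome 1 from 167425931 to 167467192 on the plus strand and overlaps no other annotated gene.

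The genes whose levels followed Rxrg most closely over samples were Gm43351, Trf and Sycp2l. Likeness was the Pearson r of log2(CPM + 0.5) over the 18 mice of the sex experiment and over the 28 LPS samples without number 2, ranked by the lower r among 13898 genes. Gm43351 had r of 0.65 and 0.70, Trf, which encodes the iron carrier transferrin, 0.65 and 0.69, and Sycp2l 0.67 and 0.63. These values are a description: the samples share genotype, depth and GC content. Among the 9 other members the r ran from -0.41 for Rara to 0.66 for Rxra in the sex experiment, and from -0.45 for Pparg to 0.20 for Nr1h3 in the LPS experiment. In females Gm43351 was at 4.64 to 5.35 CPM in KO and 2.27 to 3.47 CPM in WT, Trf at 1285 to 1461 CPM in KO and 901 to 1189 CPM in WT, and Sycp2l at 1.94 to 3.50 CPM in KO and 1.47 to 3.06 CPM in WT. Sycp2l overlapped between the genotypes there. In males Trf overlapped, at 1197 to 1478 CPM in KO and 807 to 1253 CPM in WT. The other genes did not overlap in males: Gm43351 was at 3.82 to 7.67 CPM in KO and 2.19 to 3.56 CPM in WT. Sycp2l was at 1.97 to 2.93 CPM in KO and 1.49 to 1.95 CPM in WT. Any gap follows in part from choosing genes that track Rxrg.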

How the data were processed

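Bulk RNA-seq counts per gene were deposited by the authors in 2 tables, 18 mice of the sex experiment and 33 libraries of the LPS experiment; reads were aligned to GRCm39 with STAR 2.6.1 and counted with featureCounts, per the submitters' processing notes. Of 57 labelled libraries, 6 repeats were not analysed here, and 0 columns lacked a sample. The libraries WT LPS 8 and 9 differed by little more than the sampling noise (chi-square per degree of freedom 1.86, against 8.32 or more for other pairs) and were summed, which left 32 samples. Counts were tested with edgeR 4.0.16 (R 4.3.3): filterByExpr, TMM scaling, robust quasi-likelihood F tests, Benjamini-Hochberg adjustment over all genes and 1 mean per group, with the library set as a covariate in the LPS experiment. DESeq2 1.42.0, RLE scaling, other filters and left-out libraries were alternatives. The 24-sample set, the fits without low-GC libraries or WT LPS 5, and the leave-one-out of the 24-sample set were chosen after seeing the data. The members and lists were chosen with earlier results of these data known. Genes named from the lists are those called between KO and WT and, per list, the 4 called genes with the largest LPS difference in KO. Genes near Rxrg are not reported here.

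Levels are CPM from TMM-scaled libraries; levels per kilobase and GC content use exon lengths from GENCODE M21. In the sex table the gene lengths equal the whole gene span, and 79.0 to 89.2% of its counts were even, against 39.7 to 45.6% in the LPS table. The LPS table gives no gene coordinates. On simulated counts the test recovered 52% of genes changed by 1 and 88% of those changed by 2 on the log2 scale for KO against WT males (31709 genes), and 50% and 91% for LPS against ns in KO (16088 genes). Among unchanged genes it called 7 and 2. Only genes with a mean count above 50 were changed, so the rates do not cover genes with fewer reads. The LPS run kept the low-GC libraries, left out number 2 in WT and took its dispersion without the library set. It does not describe the 24-sample set. For edgeR values the standard error is the size of the difference over the square root of the test's F statistic. For Rxrg between genotypes it takes no account of the choice of the gene by these values.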

Additional observations from a re-analysis of the deposited data

Results flagged for a closer look

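In 10 of the 80 groups of member levels examined, the highest or lowest sample stood apart from the rest of its group by Dixon's criterion, which chance meets in about 1 in 20 groups. In the sex experiment these were Rara in WT female 2 (41.8 CPM, next 9.45) and Nr1h2 in WT male 5 (62.9 CPM, next 45.8), the 2 mice with the highest neutrophil sums. In the LPS experiment 4 were the low values of KO LPS 5, a low-GC library, at 14.7 CPM of Nr1h2, 3.67 CPM of Ppard, 6.44 CPM of Rxra and 16.2 CPM of Rxrb. Another 2 were the low values of the library labelled WT ns 5, of low GC and of number 2, at 14.3 CPM of Rxra and 22.4 CPM of Rxrb. The library labelled WT LPS 6, also of both kinds, was highest in Pparg at 6.42 CPM (next 0.910), and the summed WT LPS sample 8 and 9 was highest in Vdr at 1.66 CPM (next 0.605). Rxrg had no such sample in any of its 8 groups.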

How the results depend on the processing

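Counts below are genes called by edgeR's quasi-likelihood test unless DESeq2 is named. KO against WT averaged over the sexes called 137, with 359 by DESeq2, 218 among genes of at least 5 CPM and 54 to 279 without single mice. Males gave 3, with 24 by DESeq2, 6 at 5 CPM, 5 with the replicate block and 3 to 4 without single mice. Females gave 52, with 213 by DESeq2, 96 unfiltered, 79 at 5 CPM, 3 with only the groups compared, 85 with the replicate block and 5 to 132 without single mice. WT females against males gave 23, with 153 by DESeq2, 10 at 5 CPM, 11 with only the groups compared, 13 with the replicate block and 14 to 41 without single mice. The interaction with sex gave 0.

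KO against WT without LPS gave 18, with 157 by DESeq2, 11 at 5 CPM, 9 with only the groups compared, 8 in library set 1, 0 in set 2 (638 at an unadjusted p under 0.05), 36 without low-GC libraries, 56 in the 24-sample set and 62 in that set without WT LPS 5 (21 when only that library was left out). After LPS it gave 20, with 135 by DESeq2, 8 unfiltered, 5 at 5 CPM, 3 with only the groups compared, 12 with the replicate block, 10 in set 1, 0 in set 2 (423 unadjusted), 11 with WT LPS 8 and 9 apart, 12 without number 2, 13 without low-GC libraries, 45 in the 24-sample set and 178 in that set without WT LPS 5 (23 when only that library was left out). LPS in KO gave 3542, with 0 in set 2 (2126 unadjusted), 8165 without low-GC libraries, 8783 in the 24-sample set and 8936 without WT LPS 5 as well (3577 when only that library was left out). LPS in WT gave 0, with 732 by DESeq2, 36 with the pair apart, 4934 without number 2 in WT, 5739 without it in every group, 5177 without low-GC libraries, 8696 in the 24-sample set and 8517 without WT LPS 5 as well. The interaction gave 0, with 11 by DESeq2, 1 without low-GC libraries, 1 in the 24-sample set and 3 without WT LPS 5 as well. Set 2 holds all of the low-GC libraries.

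Among members, Pparg with LPS in WT turned from 0.05 to -1.62 without number 2 in WT, -1.66 without it in every group, -1.61 in the 24-sample set and -1.94 without WT LPS 5 as well; leaving out only that library gave 0.11. Nr1h3 with LPS in KO was 1.56 to 1.82 and missed the threshold in set 2 alone (1.82, adjusted p = 0.324, edgeR), the set with all low-GC libraries. Rxrg between genotypes was at 1.15 to 1.48 averaged over the sexes, 1.33 to 1.95 in males and 0.78 to 1.20 in females. In the LPS experiment it was at 1.84 to 2.25 without LPS and 1.85 to 2.33 after it. Its direction was kept in all settings run, but the same counts chose the gene, so these ranges are a description. The cause of the shifts between settings was not tested. Same-numbered samples did not deviate together throughout. Among the 18 mice r exceeded 0.1 in 7 of 24 pairs, with a mean of 0.007 against -0.0008 for other pairs. Among LPS samples it did so in 22 of 45 pairs, with a mean of 0.11 against -0.009. In set 2 every library of number 2 is of low GC, so these same-numbered libraries share the low counts of GC-rich genes. No label says what a number stands for. With the replicate block the averaged contrast called 181 genes and LPS in KO 4336. Counts were low in the LPS experiment for Vdr, at 0 to 93 reads a library, and Pparg, at 0 to 90.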
